A study of Mus musculus and Rattus norvegicus with 96 samples.

Results

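The genes described here are 8 transcription factors that set how the liver handles drugs, lipids and hormones: Nr1i3 (the constitutive androstane receptor, CAR), Nr1i2 (the pregnane X receptor, PXR), Ahr (the aryl hydrocarbon receptor), Rxra (retinoid X receptor alpha), Ppara (peroxisome proliferator-activated receptor alpha), Hnf4a (hepatocyte nuclear factor 4 alpha), Nr3c1 (the glucocorticoid receptor) and Esr1 (estrogen receptor alpha). They were chosen by symbol and not by a rule on their values, though with earlier results of these data known. They are 8 of the 24543 genes listed for mouse liver. All 8 were among the 13370 mouse liver genes that passed the filter on low counts. The mouse samples were livers of male B6C3F1 mice, 10 to 11 weeks of age, that drank water alone (Con, 6 mice) or water with 600 ppm phenobarbital (PB, 6 mice) for 7 days. PB is a sedative drug that is the classical activator of CAR. Each liver gave 4 preparations, sequenced as rRNA-depleted total RNA: fresh-frozen (FR), frozen and then put in 70% ethanol and embedded in paraffin (FR > OH), frozen and then formalin-fixed and embedded (FR > FFPE), and fixed directly in 10% neutral buffered formalin (NBF) and embedded (FFPE). Formalin fixation lasted 18 to 24 h per the labels, and the 4 preparations of 12 mice made 48 libraries. The same symbols were read in 3 sets of targeted libraries (TempO-Seq, in which pairs of oligos are ligated on the target RNA and counted): vehicle-treated male F344 rat liver (FR, FR > FFPE and FFPE, 6 libraries each), vehicle-treated male WKY rat lung (FR, FR > FFPE and lung fixed directly in NBF for 1 yr, 6 libraries each), and AML12 cells, a mouse hepatocyte line derived from CD-1 mice and transgenic for TGF-alpha, exposed for 10 min to saline vehicle or to 0.006%, 0.03% or 0.1% NBF (3 libraries each).

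CAR, PXR, PPARα and HNF4α belong to the nuclear receptor superfamily, whose members bind DNA through a zinc finger domain and change transcription when a ligand fits the receptor or, for CAR under PB, when a signal lets it enter the nucleus. CAR, PXR and PPARα act as heterodimers with RXRα, HNF4α as a homodimer, and the glucocorticoid and estrogen receptors as steroid-bound homodimers. AhR is the exception in this set: it is a basic helix-loop-helix protein of the PAS family that pairs with ARNT and is grouped with CAR and PXR because all 3 sense foreign chemicals and induce the enzymes that clear them.

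RefSeq stretches upstream of transcript starts (GRCm38.p6, up to 250 bases before the start, bases in annotated exons left out) were found for 6 of the 8 genes, in 9 windows. The 4 below are shown because the genes differed in their PB response described further on: Nr1i2 was higher with PB in FR livers, Rxra and Ppara were lower, and Nr1i3 did not pass the test. Capitals mark the core motif that nuclear receptors bind, AGGTCA, read on either strand, and each sequence runs 5′ to 3′ on the strand of its gene. The Ppara stretch precedes an annotated start at chr15:85735776, which lies inside the span of the gene given further on.
Nr1i3, chr1:171213720-171213933 (+): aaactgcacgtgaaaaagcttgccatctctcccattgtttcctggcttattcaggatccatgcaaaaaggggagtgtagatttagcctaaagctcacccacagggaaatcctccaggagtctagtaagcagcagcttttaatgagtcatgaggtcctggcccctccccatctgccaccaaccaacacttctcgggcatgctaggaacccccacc
Nr1i2, chr16:38294850-38295074 (-): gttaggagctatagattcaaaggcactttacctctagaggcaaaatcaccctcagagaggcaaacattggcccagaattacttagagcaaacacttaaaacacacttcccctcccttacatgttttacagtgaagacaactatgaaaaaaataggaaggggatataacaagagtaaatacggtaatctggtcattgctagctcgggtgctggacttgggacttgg
Rxra, second annotated start, chr2:27709042-27709291 (+): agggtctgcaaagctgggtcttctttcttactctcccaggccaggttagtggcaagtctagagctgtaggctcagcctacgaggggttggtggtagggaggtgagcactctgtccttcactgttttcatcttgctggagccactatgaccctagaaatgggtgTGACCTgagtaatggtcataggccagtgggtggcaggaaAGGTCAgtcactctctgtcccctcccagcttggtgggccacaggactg
Ppara, chr15:85735647-85735775 (+): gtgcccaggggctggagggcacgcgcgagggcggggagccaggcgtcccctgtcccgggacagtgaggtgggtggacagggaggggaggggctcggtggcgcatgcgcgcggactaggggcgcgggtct

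The motif AGGTCA was present in 1 of the 9 windows, the second Rxra start, which held it 2 times. Among 32851 full windows of 250 bases before annotated starts of all genes, from which exons were not taken out, 4607 (14%) held it. The direct repeat of 2 such motifs with 1 base of any kind (N) between them, searched on both strands, was in none of the 9 windows and in 0.0335% of all windows. GC content differed widely among the windows shown, at 76.7% for Ppara, 55.2% for the Rxra start shown, 50.9% for Nr1i3 and 42.2% for Nr1i2. The first Rxra start, not shown, had 81.2% GC and no AGGTCA. These are letter matches in short windows, and no binding was measured.

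Counts assigned to genes per mouse liver library ranged from 11737338 to 13702672 in FR, 8167321 to 11539022 in FR > OH, 5534973 to 10681783 in FR > FFPE and 4952797 to 6760422 in FFPE. The lowest count of any of the 8 genes in any mouse liver library was 103 (Nr1i3) and the highest was 7799 (Hnf4a). The CAR target Cyp2b10, used to check the labels, was at 0 to 2.45 CPM in the 24 Con libraries and at 1078 to 2289 CPM in the 24 PB libraries, where CPM is a gene's count as a share of all gene counts in that library, brought to the usual common total. Hepatocyte marker genes summed to 81490 to 111700 CPM in FR Con livers and to 63580 to 96860 CPM in FR PB livers. In bulk tissue, fewer cells of a type and less RNA per cell cannot be told apart.

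The reads of each mouse library were assigned to RefSeq transcripts on mm10/GRCm38, where Nr1i3 lies at chr1:171213970-171218845 (+ strand), Nr1i2 at chr16:38248349-38294824 (-), Ahr at chr12:35497979-35534989 (-), Rxra at chr2:27677201-27763319 (+), Ppara at chr15:85735564-85806851 (+), Hnf4a at chr2:163506857-163572907 (+), Nr3c1 at chr18:39410545-39487245 (-) and Esr1 at chr10:4611989-5005633 (+).

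Per kb of exon, Hnf4a and Ppara stood highest in untreated frozen liver and Nr1i3 lowest. In FR Con, Hnf4a was at 121 ± 9.59 CPM per kb (s.d., n = 6) and Ppara at 120 ± 31.4 CPM per kb. These levels did not differ beyond their spread, since Hnf4a was above Ppara in 3 of 6 mice. Rxra was at 78.3 ± 4.54 CPM per kb, Nr3c1 at 25.0 ± 1.05 and Nr1i2 at 13.9 ± 1.90, and the ranges of these genes did not overlap with those of their neighbours in the order. The lowest levels were those of Ahr (9.01 ± 1.21 CPM per kb), Esr1 (8.18 ± 1.54) and Nr1i3 (7.04 ± 3.05). Ahr was above Esr1 in 3 of 6 mice and Esr1 above Nr1i3 in 5 of 6, and the ranges of these neighbours overlapped.

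**Figure D1:**
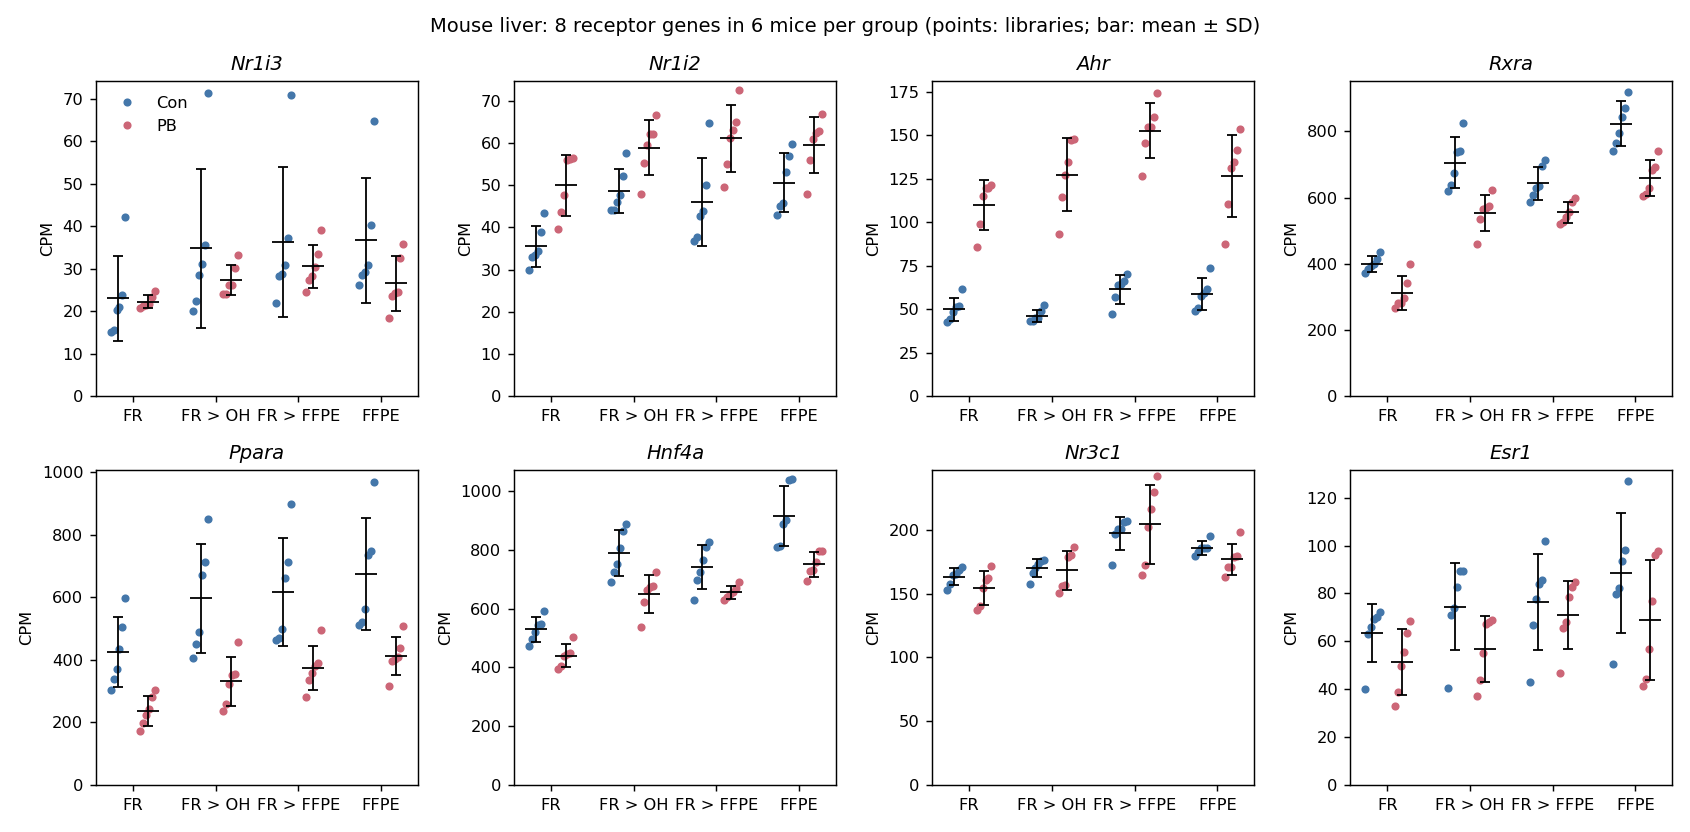
CPM of each of the 8 genes (vertical axes, 1 panel per gene) in FR, FR > OH, FR > FFPE and FFPE livers of Con and PB mice, with 1 point per library and bars for the mean ± s.d. of 6 mice. Ahr PB libraries (85.9 CPM or more in FR) sit above all Con libraries in each preparation, and 1 Con mouse stands apart for Nr1i3, at 71.3 CPM in FR > OH.

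Among the sensors of foreign chemicals, Ahr transcripts rose with PB in all 4 preparations, Nr1i2 rose in FR and FR > FFPE, and Nr1i3, the gene of the receptor that PB activates, did not pass the test in any. Ahr was at 42.4 CPM (lowest), 49.97 CPM (median) and 61.5 CPM (highest) in the 6 FR Con livers, and at 85.9, 117 and 121 CPM in the 6 FR PB livers. The groups did not overlap, and the log2 difference was 1.14 ± 0.12 (SE, edgeR quasi-likelihood test with Benjamini-Hochberg adjustment, adjusted p = 3.44e-10), a ratio of means of 2.20. The same held in FFPE, where Con livers were at 48.8, 58.5 and 73.9 CPM and PB livers at 87.7, 133 and 154 CPM (log2 difference 1.11 ± 0.12, edgeR adjusted p = 1.59e-09). In FR > FFPE, Con livers were at 47.0, 64.2 and 70.0 CPM and PB livers at 126, 155 and 174 CPM (1.31, edgeR adjusted p = 6.49e-12), and in FR > OH at 43.0, 44.7 and 52.3 CPM against 93.4, 131 and 148 CPM (1.47, edgeR adjusted p = 2.15e-13). Ahr was the only one of the 8 genes to reach a 2-fold change at adjusted p under 0.05 (a DEG) with PB, in each preparation. Across all genes, DEGs made up 2.0% in FR, 2.42% in FR > OH, 1.87% in FR > FFPE and 1.92% in FFPE.

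Nr1i2, whose protein induces Cyp3a and other drug-clearing enzymes, was at 29.9, 33.9 and 43.4 CPM in FR Con livers and at 39.8, 51.8 and 56.4 CPM in FR PB livers. The ranges overlapped slightly, and the log2 difference was 0.49 ± 0.11 (edgeR adjusted p = 0.00275). In FR > FFPE, Con livers were at 36.7, 43.3 and 64.9 CPM and PB livers at 49.6, 62.2 and 72.6 CPM (0.42, edgeR adjusted p = 0.0152). In FR > OH the difference was 0.28 (edgeR adjusted p = 0.11) and in FFPE 0.24 (95% interval 0.0 to 0.47, edgeR adjusted p = 0.26), so neither passed the threshold. Nr1i3 was at 15.1, 20.7 and 42.2 CPM in FR Con livers and at 20.8, 21.6 and 24.9 CPM in FR PB livers. The PB range lay wholly inside the Con range, and the log2 difference of -0.05 had a 95% interval of -0.55 to 0.45, which leaves room for a change of that size either way. Nr1i3 differences in FFPE, FR > OH and FR > FFPE were -0.47, -0.35 and -0.23, with edgeR adjusted p of 0.322, 0.397 and 0.681.

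Ppara, Rxra and Hnf4a, which govern fatty acid oxidation, receptor pairing and hepatocyte identity, fell with PB. The fall of Ppara was the largest: FR Con livers were at 303, 403 and 598 CPM and FR PB livers at 172, 233 and 303 CPM. The highest PB liver was level with the lowest Con liver, and the log2 difference was -0.85 ± 0.19 (edgeR adjusted p = 0.00206), a ratio of means of 0.556. Ppara passed the test in all 4 preparations, with log2 differences of -0.71 in FFPE (edgeR adjusted p = 0.0137), -0.72 in FR > FFPE (edgeR adjusted p = 0.0105) and -0.85 in FR > OH (edgeR adjusted p = 0.00152). Rxra, the shared partner of CAR, PXR and PPARα, was at 371, 397 and 436 CPM in FR Con livers and at 267, 289 and 399 CPM in FR PB livers. Its log2 difference was -0.36 ± 0.08 in FR (edgeR adjusted p = 0.00289), -0.32 in FFPE (edgeR adjusted p = 0.0126), -0.35 in FR > OH (edgeR adjusted p = 0.00352) and -0.21 in FR > FFPE, where it did not pass (edgeR adjusted p = 0.129). Hnf4a was at 474, 532 and 593 CPM in FR Con livers and at 395, 443 and 505 CPM in FR PB livers. Its log2 difference was -0.27 ± 0.08 in FR (edgeR adjusted p = 0.0248), -0.29 in FFPE (0.0178), -0.28 in FR > OH (0.0144) and -0.18 in FR > FFPE (0.196). In FFPE, the Con and PB groups of Ppara, Rxra and Hnf4a did not overlap: Rxra was at 742 to 919 CPM in Con and 605 to 740 CPM in PB. Ppara there was at 511 to 968 CPM in Con and 317 to 507 CPM in PB, and Hnf4a at 811 to 1041 CPM in Con and 693 to 797 CPM in PB. Hepatocyte markers moved in the same direction as Hnf4a: 2 of 10 fell in FR and none rose, against 2.6% of all genes lower. Their median log2 difference was -0.20, and their part in the result was not tested.

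The steroid receptors Nr3c1 and Esr1 did not pass the test with PB in any preparation. Nr3c1, which carries the cortisol and corticosterone signal to gluconeogenic genes, was at 153, 165 and 171 CPM in FR Con livers and 137, 157 and 172 CPM in FR PB livers. Its log2 difference of -0.08 had a 95% interval of -0.23 to 0.06, the narrowest of the 8 genes, with edgeR adjusted p = 0.559. Esr1 was at 40.0, 67.6 and 72.2 CPM in FR Con livers and 32.9, 52.6 and 68.3 CPM in FR PB livers, with a wide interval of -0.74 to 0.13 around a log2 difference of -0.30 (edgeR adjusted p = 0.454).

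Counted over the set, 5 of 8 genes changed with PB in frozen liver, against 8.45% of all 13370 genes. FFPE gave 4 (6.63% of all genes), FR > OH 4 (12.2%) and FR > FFPE 3 (7.23%). In FR > FFPE the number was 5 with TMM scaling or DESeq2, as Rxra (-0.28 with TMM, edgeR adjusted p = 0.0284) and Hnf4a (-0.25 with TMM, edgeR adjusted p = 0.0268) then passed. The median log2 difference of all genes was 0.004, 0.008, 0.02 and 0.06 in these comparisons. The 4 preparations share their 12 mice, so these counts are not independent of each other. The PB response was compared between preparations through interaction terms, and no gene (0.0%) passed with edgeR, DESeq2, TMM scaling or limma. With the mouse as a block, since the preparations share mice, 37 genes passed in FR > OH, 1 in FFPE and 0 in FR > FFPE, none of them among the 8 receptors. At an unadjusted edgeR p under 0.05, the term for FFPE held 463 genes (3.46%), the term for FR > FFPE 288 (2.15%) and the term for FR > OH 305 (2.28%), with none of the 8 receptors among them. The interaction of Nr1i3 with FFPE was -0.42 on the log2 scale with a 95% interval of -1.13 to 0.30 (edgeR adjusted p = 1.0). That of Ahr with FR > OH was 0.33 with a 95% interval of -0.004 to 0.655 (edgeR adjusted p = 1.0), and 0.32 with the mouse as a block (edgeR adjusted p = 0.0803).

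**Figure D2:**
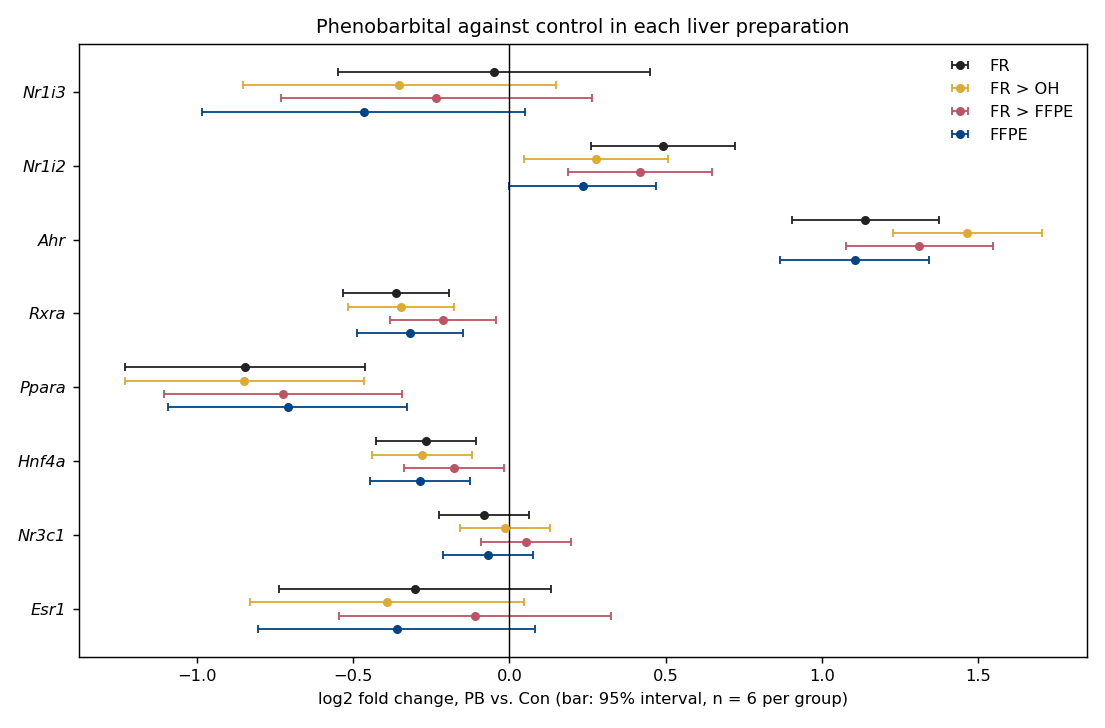
Log2 difference of PB against Con livers (horizontal axis) for each of the 8 genes in the 4 preparations, with bars for the 95% interval from edgeR and 6 mice per group. Ahr lies between 1.11 and 1.47 in all 4 preparations, Ppara between -0.85 and -0.71, and the bars of Nr1i3, Nr3c1 and Esr1 cross 0.

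Treatment was spread unevenly over the numbers L1 to L5 in the sample titles, read here as sequencing lanes. Each number holds 9 or 10 libraries while the protocol states 8 per lane, so whether they are lanes is not known. The 6 FR Con libraries were all in lane 2 with 2 PB libraries, and in FR > FFPE lane and treatment cannot be told apart. With lane as a term in a fit of FR and FFPE, Ahr alone remained called, at 1.01 in FR (edgeR adjusted p = 0.000413) and 1.05 in FFPE (edgeR adjusted p = 1.46e-05), where the same libraries without the term gave 5 and 4 receptors. Over all genes, the lane term left 2.21% called in FR and 4.19% in FFPE. The estimates themselves moved little for Ppara (-0.87 in FR, adjusted p = 0.0921, and -0.65 in FFPE, adjusted p = 0.066), Rxra (-0.36, 0.213, and -0.35, 0.0603) and Hnf4a (-0.24, 0.417, and -0.30, 0.0841). The estimate of Nr1i2 fell to 0.30 in FR (edgeR adjusted p = 0.376) and that of Esr1 went to -0.83 (edgeR adjusted p = 0.16). Within lane 2, the 2 FR PB libraries differed from the 6 FR Con libraries by 1.00 for Ahr, -0.83 for Ppara, -0.80 for Esr1, -0.37 for Rxra, -0.24 for Hnf4a and 0.30 for Nr1i2 on the log2 scale, and Nr1i2 alone of these overlapped. Within lane 1, the 4 FFPE PB libraries differed from the 6 FFPE Con libraries by 1.03 for Ahr, -0.62 for Ppara, -0.35 for Rxra and -0.29 for Hnf4a without overlap, and by -0.60 for Esr1 and 0.21 for Nr1i2 with overlap. Within lane 5, the 6 FR > OH PB libraries differed from 3 Con libraries by 1.43 for Ahr, 0.35 for Nr1i2, -0.57 for Esr1 and -0.23 for Hnf4a without overlap, and by -0.62 for Ppara and -0.22 for Rxra with overlap. For Esr1, lane 2 held 18D, the lowest PB mouse, and lane 5 left out 21C, the lowest Con mouse. With all 6 mice per group, Esr1 overlapped in FR (Con 40.0 to 72.2 CPM, PB 32.9 to 68.3 CPM). It also overlapped in FR > OH (Con 40.54 to 89.4 CPM, PB 37.15 to 69.1 CPM).

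Genes downstream of the 8 receptors, read from lists of textbook targets, moved unevenly with PB in FR livers. Like all lists used here, these were chosen with earlier results of these data known, so their counts are a description and no independent test. Over all genes there, 5.86% were called higher and 2.6% lower. Of 25 CAR and PXR targets tested, 23 rose and none fell, with a median log2 difference of 3.16 against 0.004 for all genes. Cyp2b10 was up by 12.40 (edgeR adjusted p = 8.5e-31), and Cyp2c55 by 9.02 and Gsta1 by 6.36. The same list had 23 members up in FR > FFPE (6.24% of all genes higher), 23 in FR > OH (8.43%) and 22 in FFPE (4.64%). Of 7 AhR targets, 4 rose and none fell (median 0.58). Among them Cyp1a2, a caffeine-oxidising enzyme that is also a known CAR target, went from 365 ± 89.5 CPM (s.d., n = 6) in Con to 1116 ± 150 CPM in PB (1.61, edgeR adjusted p = 3.26e-11). Nqo1, a quinone reductase that also responds to oxidative stress, differed by 1.19 (edgeR adjusted p = 0.0227), and Ugt1a6b by 0.58 (edgeR adjusted p = 2.26e-06).

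The counts of this paragraph in FR stand against 5.86% of all genes called higher and 2.6% called lower. Of 25 PPARα targets, 5 fell and none rose, with a median of -0.16. Fgf21, a fasting hormone, differed by -1.77 (edgeR adjusted p = 0.0413), Angptl4, an inhibitor of lipoprotein lipase, by -1.30 (0.0228), and Plin2, a lipid droplet coat protein, by -0.77 (0.0484). Of 17 glucocorticoid receptor targets, 3 fell and none rose (median -0.37): Pck1, a gluconeogenic enzyme, by -1.36 (edgeR adjusted p = 9.15e-05), the clock gene Per1 by -1.32 (0.0413) and Tat, which breaks down tyrosine, by -0.55 (0.0262). Tat is also among the hepatocyte markers that fell in FR. Of 23 HNF4α targets, 4 rose and none fell, with a median of -0.01. Among the 4 were Nr1i2 (0.49), itself 1 of the 8 receptors, and the clotting factor genes F10 (0.47, edgeR adjusted p = 0.000386) and F7 (0.37, edgeR adjusted p = 0.000708). Of 30 other nuclear receptor genes, 2 rose and none fell: Rarb, a retinoic acid receptor, from 4.68 ± 0.986 to 9.63 ± 2.55 CPM (1.04, edgeR adjusted p = 0.00012), and Nr6a1 by 0.54 (0.00406). Of 26 partner and cofactor genes, 3 fell and none rose, among them the liver pioneer factor Foxa3 by -0.74 (0.00532) and the coactivator Ncoa2 by -0.25 (0.0128). Markers of liver zones also moved in FR, but are not separate from the target lists. Of 9 periportal markers, 2 fell and none rose, and they summed to 3292 to 5026 CPM in Con and 2324 to 3087 CPM in PB. That sum includes Pck1, at a mean of 1603 CPM in Con and 622.5 CPM in PB. Of 8 pericentral markers, 3 fell and 1, Cyp1a2, rose. They summed to 4439 to 6916 CPM in Con and 5358 to 7176 CPM in PB, which includes Cyp1a2 at means of 365 and 1116 CPM. In FR > OH, 3 pericentral markers rose and none fell, against 8.43% of all genes higher. None of the Kupffer, endothelial, stellate or bile duct cell markers passed the test in FR, and Kupffer markers summed to 364 to 630 CPM in Con and 404 to 854 CPM in PB.

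The order of the mice within a treatment group recurred over preparations for several of the genes. The Con mouse 21C had the highest Nr1i3, Nr1i2 and Ppara and the lowest Esr1 of the 6 Con mice in all 4 preparations. For Nr1i3 it was at 42.2 CPM in FR against 15.1 to 23.9 CPM in the other 5 mice, and at 64.8 CPM in FFPE against 26.2 to 40.4 CPM. Without this mouse in any preparation, a choice made after seeing the data, the number of receptors changed by PB was 5 in FR and in FR > OH, where Nr1i2 then passed (0.33, edgeR adjusted p = 0.0281), 4 in FFPE and 3 in FR > FFPE. With only its FR > FFPE library left out, Ppara there was at -0.59 (edgeR adjusted p = 0.0553), and 2 receptors remained called. Con mouse 8A had the highest Rxra and Hnf4a of the Con mice in all 4 preparations. Among PB mice, 18B had the lowest Ahr and Nr1i2, 20D the highest and 80B the lowest Ppara, 20B the lowest Hnf4a and 18D the lowest Esr1, each in 4 of 4 preparations.

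Preservation moved the 8 genes unequally, with Rxra, Hnf4a and Ppara gaining the largest shares of gene counts in directly fixed liver and Ahr and Nr3c1 the smallest. In FR Con livers Rxra was at 371, 397 and 436 CPM (lowest, median, highest) and in FFPE Con livers at 742, 820 and 919 CPM. Over all 12 mice, FFPE exceeded FR for Rxra in every mouse and the groups did not overlap, with a log2 difference of 1.06 ± 0.06 (edgeR adjusted p = 3.29e-20, ratio of means 2.08). Hnf4a went from 474, 532 and 593 CPM in FR Con to 811, 896 and 1041 CPM in FFPE Con, higher in 12 of 12 mice and without overlap (0.78 ± 0.06, edgeR adjusted p = 1.2e-16). Ppara was higher in 12 of 12 mice by 0.73 ± 0.13 (edgeR adjusted p = 5e-06). The other differences were 0.47 for Nr1i3, 0.45 for Esr1, 0.38 for Nr1i2, 0.22 for Ahr and 0.19 for Nr3c1. All 8 passed the test, against 70.3% of all genes (53% higher), and Rxra alone was a DEG, against 14.9% of all genes.

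These directions depend on how libraries were scaled. The median difference of all genes was 0.32 with CPM on gene counts, 0.041 with TMM and 0.035 with DESeq2. It was -0.62 with the divisor of the authors' log2 CPM, called all reads here, as library size. With limma, run on the authors' log2 CPM that rest on the same divisor, it was -0.69. With TMM, Rxra, Hnf4a and Ppara alone were called higher and none lower, and DESeq2 called these and 1 gene lower. With either scaling on all reads, 6 of the 8 genes were called lower in FFPE and none higher, where 70.7% of all genes were called lower with all reads as library size and 71.8% with limma. Gene counts made up 48.5 ± 1.75% of the authors' divisor in FR, 38.6 ± 2.85% in FR > OH, 37.2 ± 2.14% in FR > FFPE and 25.1 ± 1.87% in FFPE (s.d., n = 12). Rescaling shifts all genes of a library nearly alike, so values relative to the all-gene median must stay close, and their closeness is no test. Over the 5 scalings, Rxra was at 0.74 to 0.81 above the median, Hnf4a at 0.45 to 0.52, Ppara at 0.41 to 0.48, Nr1i3 at 0.14 to 0.20, Esr1 at 0.13 to 0.16 and Nr1i2 at 0.05 to 0.12. Ahr was below the median, at -0.11 to -0.05, and Nr3c1 at -0.14 to -0.07. After removal of a trend on transcript length and GC content, a value without a test, the difference was 0.49 for Rxra, 0.42 for Hnf4a and 0.54 for Ppara, so Ppara then stood first. Preparation and lane were largely confounded. With a lane term, 4 receptors were called higher in FFPE than FR (Esr1 1.14, Rxra 1.14, Hnf4a 0.80 and Nr1i2 0.53), against 42.8% of all genes called. Ppara missed the threshold at 0.59 (edgeR adjusted p = 0.0702). FR and FFPE shared only lane 2, where the FFPE libraries were those of PB mice 75C and 80B alone. The lane-adjusted estimates hang on these FFPE libraries. The FR PB libraries of lane 2 came from other mice, 18B and 18D, and 18D had the lowest Esr1 of the PB mice in every preparation.

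Freezing before fixation left a like order. In FR > FFPE against FR all 8 genes were higher on gene counts (65.4% of all genes changed and 56.5% were higher, median 0.34), led by Rxra at 0.76 (edgeR adjusted p = 5.93e-15). Relative to that median Rxra was at 0.42, Ppara at 0.26, Nr1i3 at 0.21 and Hnf4a at 0.19, while Ahr, Esr1, Nr3c1 and Nr1i2 lay within 0.05 of it. In FR > OH against FR, where no formalin was used, 5 genes were higher (54.9% of all genes changed and 41.7% were higher, median 0.18): Rxra by 0.83, Hnf4a by 0.57, Ppara by 0.49, Nr1i3 by 0.45 and Nr1i2 by 0.34. Ahr (0.05, edgeR adjusted p = 0.651), Nr3c1 (0.09, 0.125) and Esr1 (0.19, 0.31) did not pass. With the mouse as a block, Nr3c1 (edgeR adjusted p = 0.0136) and Esr1 (0.18, edgeR adjusted p = 0.00173) passed too, for 7 of 8. These comparisons share the FR libraries.

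Whether a formalin-fixed liver had first been frozen was read from FFPE against FR > FFPE, and formalin in place of ethanol after freezing from FR > FFPE against FR > OH. In the former, 3 genes changed (29.2% of all genes, median -0.02): Rxra was 0.30 higher (edgeR adjusted p = 0.000113) and Hnf4a 0.25 higher (edgeR adjusted p = 0.000597) in FFPE, and Nr3c1 was lower, at -0.15 (edgeR adjusted p = 0.0237). With all reads as library size, Rxra was instead at -0.27 and Hnf4a at -0.32. After removal of the length and GC trend, Rxra was at 0.05 and Hnf4a at 0.07. With the mouse as a block, Ahr (-0.18, edgeR adjusted p = 0.000557) and Ppara (0.14, edgeR adjusted p = 0.000339) also passed. In the latter, Ahr was 0.34 higher (edgeR adjusted p = 0.00232) and Nr3c1 0.25 higher (edgeR adjusted p = 0.00044) in FR > FFPE, each in 12 of 12 mice, against 22.3% of all genes changed and a median of 0.13. Other scalings changed these calls: Ahr missed the threshold with TMM (0.21, edgeR adjusted p = 0.124), DESeq2 (0.21, adjusted p = 0.111) and limma (0.28, adjusted p = 0.0708), and Nr3c1 with TMM (0.12, edgeR adjusted p = 0.0627). Rxra was instead called lower in FR > FFPE with TMM (-0.19, edgeR adjusted p = 0.0294) and DESeq2 (-0.19, adjusted p = 0.0109), as was Hnf4a (-0.16, adjusted p = 0.0329 with TMM and 0.00985 with DESeq2). The block added Ppara (0.12, edgeR adjusted p = 0.00196) and Esr1 (0.19, edgeR adjusted p = 0.00277).

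**Figure D3:**
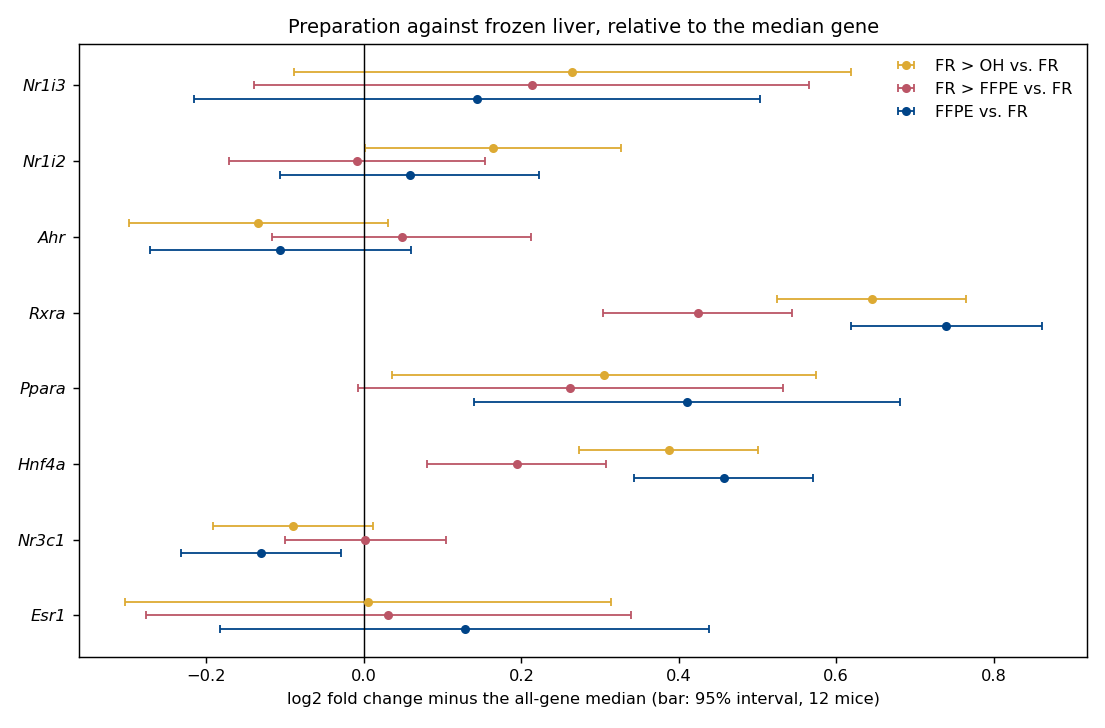
Log2 difference between preparations of the same 12 mice minus the median of all 13370 genes (horizontal axis) for the 8 genes, with bars for the 95% interval from edgeR. Rxra stands highest in FFPE vs. FR, at 0.74, and Nr3c1 and Ahr lowest, at -0.13 and -0.11, while differences not taken from the median turned negative for 7 of the 8 genes in FFPE vs. FR when all reads set the library size.

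Other transcription factor genes moved with the 8 receptors in FFPE against FR. Of 30 other nuclear receptor genes, 24 were higher and none lower on gene counts, with a median of 0.60 against 0.32 for all genes, and 2 higher and 16 lower with all reads as library size (median -0.36 against -0.62). They were led by Ppard (1.68), Nr4a1 (1.30) and Nr6a1 (1.25). Of 26 partners and cofactors, 21 were higher and 3 lower (median 0.71), and 5 higher and 16 lower with all reads as library size, with Ppargc1b at 1.499 and Foxa1 at 1.46. The medians of the 5 target lists lay below that of all genes, a distance that rescaling of libraries leaves nearly unchanged. Of 25 CAR and PXR targets, 12 were lower and 2 higher (median -0.49), among them Cyp3a11 (-1.24), Ces2a (-1.22) and Cyp2c54 (-1.06). Of 23 HNF4α targets, 15 were lower and 3 higher, including Ttr (-1.31) and Apoa2 (-1.32). Of 25 PPARα targets, 9 were lower and 4 higher (median -0.20), with Fabp1, which carries fatty acids, at -1.09. Of 7 AhR targets 3 were lower and none higher (median -0.27), and of 17 glucocorticoid receptor targets 6 were higher and 1 lower (median 0.20), which turned to none higher and 10 lower with all reads as library size. Hepatocyte markers (9 of 10 lower, median -0.86) and Kupffer cell markers (9 of 10 lower, median -0.84) fell as well, and their part in the receptor values was not tested. The hepatocyte markers are not separate from the HNF4α targets, since both lists hold Ttr and Apoa2.

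In AML12 cells, 4 of the 8 genes were among the 1570 genes that passed the low-count filter. Rxra had no count in any of the 12 libraries, Nr1i3 had 0 to 6 counts, Ppara 0 to 9 and Esr1 0 to 3. Library totals ranged from 444288 to 2325990 counts, and p-values measure the spread between these libraries, since the labels do not say whether they were separate cultures. Of 10 hepatocyte markers 3 had counts, summing to 93.5 to 569 CPM, and of 8 bile duct markers 3 (Krt19, Krt7 and Spp1) had counts, summing to 3267 to 8465 CPM. A gene at 0 in all libraries, such as Alb, may have no probe on the panel, so the hepatocyte label could not be checked with the markers at 0.

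At 0.1% NBF for 10 min, Nr3c1 and Ahr rose and Hnf4a fell in AML12 cells. Nr3c1 was at 109, 110.0 and 110.3 CPM in the 3 vehicle libraries and at 189, 243 and 267 CPM in the 3 libraries at 0.1%. The groups did not overlap, and the log2 difference was 0.88 ± 0.18 (edgeR adjusted p = 0.00257). Ahr went from 59.8, 60.9 and 73.5 CPM to 88.99, 127 and 147 CPM, again without overlap (0.68 ± 0.22, edgeR adjusted p = 0.036). Hnf4a went from 348, 462 and 568 CPM to 221, 229 and 406 CPM, with overlap (-0.87 ± 0.24, edgeR adjusted p = 0.02). Nr1i2, at 9.82 to 22.4 CPM in vehicle and 10.99 to 20.6 CPM at 0.1%, did not pass (-0.25 ± 0.37, edgeR adjusted p = 0.679). These were 3 of 4 tested receptors against 19.3% of all 1570 genes, and the number fell to 1, Nr3c1, when vehicle library 87 or 94 or 0.1% library 95 or 96 was left out. Without vehicle library 90, 2 remained and Ahr missed the threshold (edgeR adjusted p = 0.0578). On total counts without TMM, 2 remained and Hnf4a missed it.

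At 0.006% and 0.03% NBF, no gene of 1570 (0.0%) passed with edgeR or DESeq2, and 28 (1.78%) and 62 genes (3.95%) had an unadjusted edgeR p under 0.05. Nr3c1 was at 72.03, 98.4 and 113 CPM at 0.006% and at 95.9, 116 and 126 CPM at 0.03%, both ranges including the vehicle values. Ahr reached 53.2 to 90.9 CPM and 61.04 to 77.3 CPM at these doses. The 10 most abundant genes took 27.9 to 32.0% of counts at 0.1% and 33.8 to 35.2% in vehicle, and the part of this in the receptor values was not tested.

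**Figure D4:**
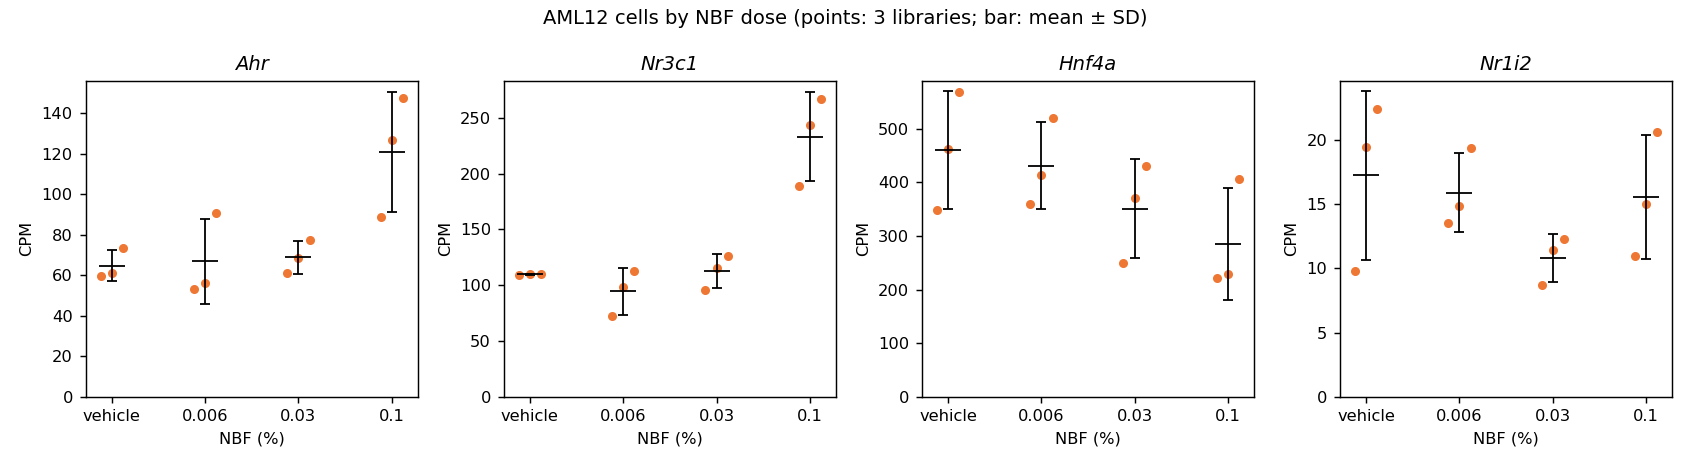
CPM of Ahr, Nr3c1, Hnf4a and Nr1i2 in AML12 cells (vertical axes) by NBF dose (horizontal axis), with 3 libraries as points and the mean ± s.d. as bars. The 3 libraries at 0.1% lie above all vehicle libraries for Ahr and Nr3c1, and 1 of them, at 406 CPM, lies within the vehicle range for Hnf4a.

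In rat liver, embedded and frozen samples differed in 5 of 8 receptors for FFPE against FR (79.7% of all 2281 genes changed) and in 7 of 8 for FR > FFPE against FR (71.3%). Frozen samples entered the assay as purified RNA and embedded ones as lysates of sections, so input and preservation cannot be told apart. Ahr was at 343, 419 and 570 CPM (lowest, median, highest of 6) in FR, at 88.1, 126 and 236 CPM in FR > FFPE and at 224, 274 and 376 CPM in FFPE. FR > FFPE did not overlap with FR and FFPE did, and the log2 difference on TMM scaling was -2.27 (edgeR adjusted p = 8e-08), with -2.21 for FFPE (edgeR adjusted p = 4.2e-08). On total counts these were -1.54 and -0.64. Rxra was at 334, 423 and 520 CPM in FR, 216, 270 and 316 CPM in FR > FFPE and 258, 300 and 349 CPM in FFPE, with log2 differences of -1.36 (edgeR adjusted p = 4.09e-06) and -2.04 (edgeR adjusted p = 5.28e-09), or -0.66 and -0.47 on total counts. Esr1 passed in FFPE alone on TMM scaling (-1.47, edgeR adjusted p = 3.63e-05) and turned to 0.11 on total counts, at 38.7 to 55.8 CPM in FR and 19.5 to 93.2 CPM in FFPE.

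Nr1i3 and Ppara went up in the embedded rat livers. Nr1i3 was at 18.5, 22.4 and 30.9 CPM in FR, 70.0, 121 and 145 CPM in FR > FFPE and 101, 140 and 237 CPM in FFPE, so both embedded groups lay above all frozen libraries. Its log2 differences were 1.59 (edgeR adjusted p = 4.47e-07) and 1.02 (edgeR adjusted p = 0.000125), or 2.29 and 2.63 on total counts. Ppara was at 7.24, 11.4 and 14.2 CPM in FR, 14.8, 30.6 and 43.6 CPM in FR > FFPE and 54.03, 83.8 and 172 CPM in FFPE, with log2 differences of 0.74 (edgeR adjusted p = 0.00567) and 1.36 (edgeR adjusted p = 1.5e-05), or 1.45 and 3.00 on total counts. The median of all genes for FFPE against FR was 0.35 with TMM and 1.97 on total counts. Relative to that median, over 3 scalings, Ahr was at -2.61 to -2.56, Rxra at -2.44 to -2.39, Nr1i3 at 0.66 to 0.68 and Ppara at 1.01 to 1.03. Rescaling shifts all genes nearly alike, so this closeness is no test. Nr1i2 and Hnf4a were higher in FR > FFPE (0.48, edgeR adjusted p = 0.0381, and 0.45, edgeR adjusted p = 0.046) and did not pass in FFPE (-0.39, 0.0894, and -0.24, 0.282), where total counts turned them to 1.18 and 1.36. Nr3c1 was lower in FR > FFPE (-0.56, edgeR adjusted p = 0.00529), turning to 0.14 on total counts, and did not pass in FFPE (0.10, edgeR adjusted p = 0.624). Between FFPE and FR > FFPE, 7 of 8 receptors changed (53.8% of all genes): Nr3c1 (0.66) and Ppara (0.62) were higher in FFPE, and Esr1 (-1.35), Nr1i2 (-0.87), Hnf4a (-0.69), Rxra (-0.69) and Nr1i3 (-0.58) were lower, of which Nr1i3, Nr1i2, Rxra and Hnf4a turned positive on total counts. The 10 most abundant genes took 46.2 to 51.2% of counts in FR, 37.6 to 49.4% in FR > FFPE and 29.0 to 40.0% in FFPE, and hepatocyte markers summed to 178600 to 240300, 163900 to 245800 and 103600 to 168500 CPM. Their part in the receptor values was not tested. FFPE rat liver libraries held only 139475 to 889128 counts, against 3040915 to 3970187 in FR.

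Lung is known for little CAR, PXR or HNF4α, and the frozen rat lung libraries held few counts of their genes while the embedded ones held more. A frozen lung library with 12 counts was left out, which leaves 5 FR libraries. In these 5 libraries together Nr1i3 had 1 count, Hnf4a 2 and Nr1i2 10. Nr1i3 was at 0 to 0.407 CPM in FR, 11.2 to 34.9 CPM in FR > FFPE and 4.41 to 43.0 CPM in lung fixed for 1 yr. Its pooled CPM ratio to FR was 242 (95% counting interval 42.8 to 9603) in FR > FFPE and 172 (30.0 to 6855) in 1 yr lung. For Hnf4a the ratios were 81.8 (22.1 to 684) and 164 (44.8 to 1370), and for Nr1i2 9.46 (4.82 to 20.7) and 29.3 (15.5 to 62.3). The same embedded libraries carried more hepatocyte marker counts: 7 of 10 markers had counts, summing to 13.4 to 68.5 CPM in FR, 181 to 812 CPM in FR > FFPE and 158 to 1883 CPM in 1 yr lung, and their part in these ratios was not tested. The lung markers listed had no count in any lung library, so the tissue label could not be checked with them. The 1 yr library 61 was the highest of its group for Nr1i3, Nr1i2, Ppara, Hnf4a and Esr1.

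Among the receptors with more counts in lung, Ahr was at 875 to 1466 CPM in the 5 FR libraries (median 1179), 118, 271 and 456 CPM in FR > FFPE and 296, 381 and 456 CPM in 1 yr lung. Neither embedded group overlapped with FR, and the log2 differences on TMM scaling were -2.80 (edgeR adjusted p = 9.66e-09) and -2.39 (edgeR adjusted p = 9.53e-08). Rxra was likewise lower, at -2.09 and -1.49, with 270 to 338 CPM in FR against 69.4 to 138 and 141 to 234 CPM. Ppara was at 0.915 to 3.97 CPM in FR, 24.1 to 59.2 CPM in FR > FFPE and 20.3 to 127 CPM in 1 yr lung (3.36 and 3.601), and Esr1 at 9.98 to 18.3, 40.3 to 120.0 and 24.1 to 72.5 CPM (1.74, edgeR adjusted p = 5.82e-06, and 0.83, edgeR adjusted p = 0.00898). Nr3c1 was lower on TMM scaling (-0.79 and -0.84) and not called on total counts, with overlapping ranges of 433 to 497 CPM in FR, 355 to 544 CPM in FR > FFPE and 389 to 551 CPM in 1 yr lung. Of all 2322 genes, 77.4% changed in FR > FFPE and 75.5% in 1 yr lung against FR. Between the embedded groups, Nr1i2 (1.59, edgeR adjusted p = 0.00318) and Rxra (0.59, edgeR adjusted p = 0.0142) were higher and Esr1 (-0.90, edgeR adjusted p = 0.00956) lower in 1 yr lung, against 31.0% of all genes.

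**Figure D5:**
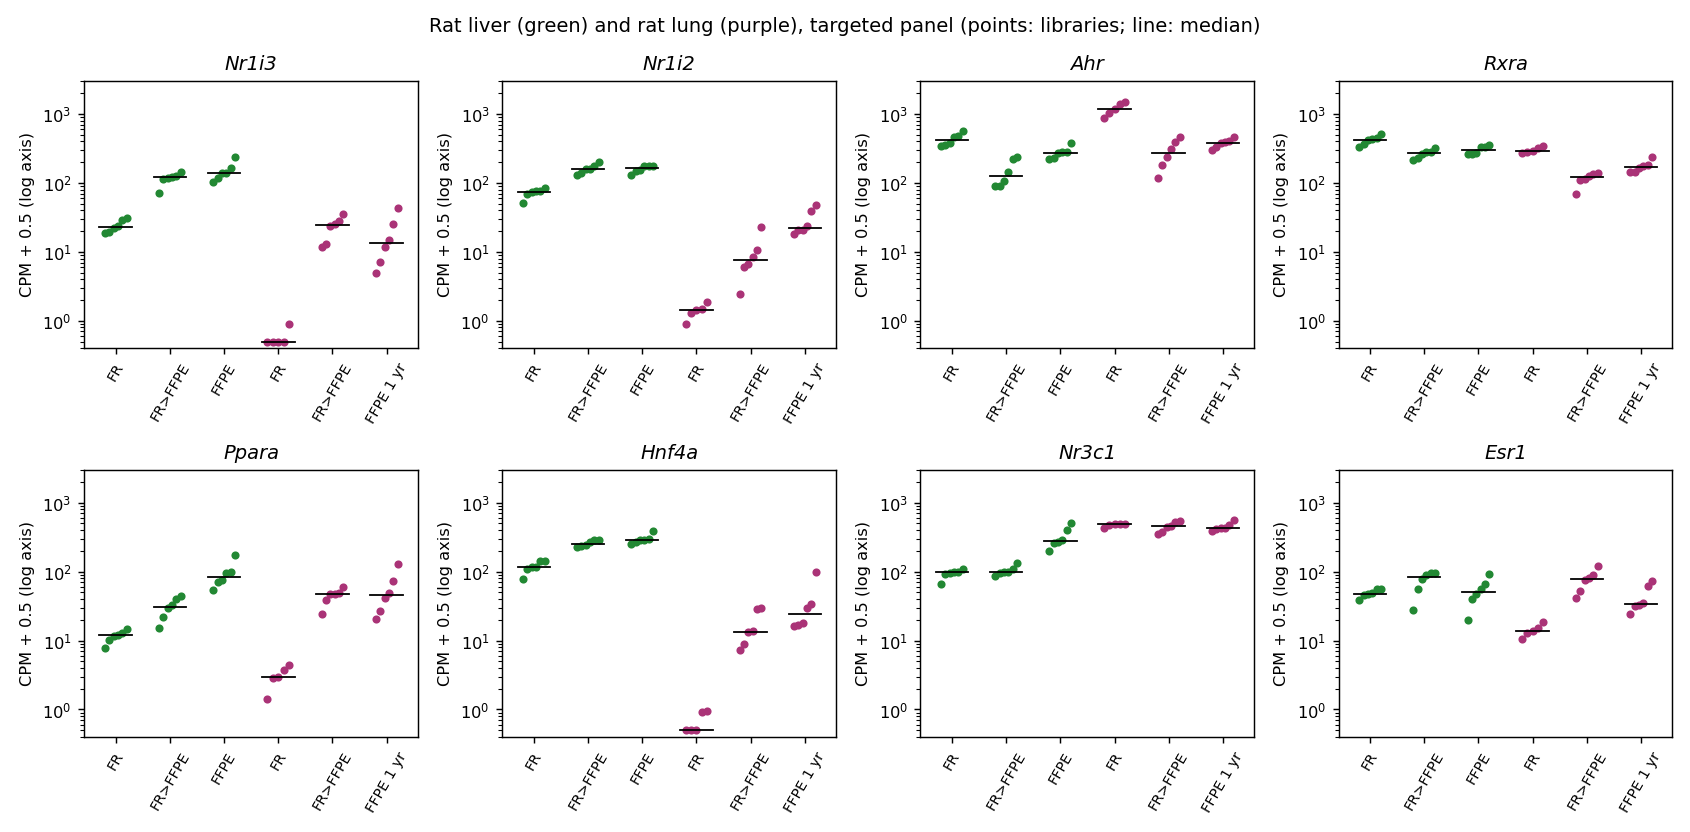
CPM + 0.5 on a log axis (vertical) of the 8 genes in rat liver (green) and rat lung (purple) by preparation, with 1 point per library and a line at the median. Nr1i3 and Hnf4a rise from 0 to 0.458 CPM in frozen lung to 4.41 CPM or more in embedded lung, and Ahr lies lower in embedded than in frozen lung.

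Frozen rat liver and lung, which also differ in strain, were set side by side on 2003 genes, of which 85.2% changed. All 8 receptors were called, but this count is no test for Nr1i3, Hnf4a and Nr1i2. These had 1, 2 and 10 counts in frozen lung and passed the low-count filter only through liver. The call of Nr3c1 depended on the method, as given below. The pooled CPM ratio of liver to lung was 660 for Hnf4a (95% counting interval 182 to 5454), 265 for Nr1i3 (47.4 to 10500) and 80.9 for Nr1i2 (43.9 to 169). Log2 differences on TMM scaling were 4.18 for Ppara, 3.91 for Esr1 and 2.61 for Rxra, whose CPM ranges overlapped, and on total counts 2.09, 1.80 and 0.49. The pooled CPM ratio of Ppara was 4.33 (2.94 to 6.61). Ahr was 0.65 higher in liver with TMM and at -1.46 on total counts, where the median of all genes was -2.20 in place of -0.08. Nr3c1 was lower in liver, at 65.1 to 107 CPM against 433 to 497 CPM in lung without overlap, and at -2.35 on total counts (edgeR adjusted p = 4.84e-13). With TMM it was at -0.24 (edgeR adjusted p = 0.0364), a call lost with DESeq2 and when lung library 50, 51, 52 or 53 was left out (adjusted p = 0.0726, 0.0562, 0.107 and 0.0701).

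The genes whose log2 CPM followed each receptor most closely over the 48 mouse libraries differed by receptor. These Pearson r values are a description over libraries that share mice, lanes, depth and preparation, among 12288 genes. The libraries span Con and PB livers, and the part of PB in these values was not tested. Ahr was followed by Fmo5 (r = 0.951), Tsku (0.951) and Sgpl1 (0.948). Among the genes that followed Rxra were Midn (0.966) and Man2a2 (0.964), and among those that followed Hnf4a were Nsmf (0.964) and Ulk1 (0.963). Ppara was followed by Slc25a22 (0.926) and by Cpt1a (0.922), which takes fatty acids into mitochondria. The closest genes were Mmd (0.83) and Creb3l3 (0.822) for Nr1i3, Nadk (0.851) for Nr1i2, Eif5 (0.897) for Nr3c1 and Alpk1 (0.886) for Esr1.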

How the data were processed

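Mouse liver RNA (100 ng) was made into TruSeq Stranded Total RNA libraries with Ribo-Zero, aligned by the authors with STAR 2.5.3a and quantified with Partek Flow by expectation-maximization on RefSeq transcripts (mm10/GRCm38), which gives the estimated counts deposited (92% of values whole). The divisor of the authors' log2 CPM of mouse liver was worked out here from the deposited counts and log2 CPM. The paper describes it as the total library size, and it is called all reads here. Which reads it counts was not checked. The deposited log2 CPM were used for tests only in the limma alternative. Rat and AML12 tables were deposited as estimated counts of TempO-Seq s1500+ probes (98.8 to 99% whole), and their counting tool is not given in the sources used here. Libraries under 100000 counts were dropped (1 frozen lung).

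Estimated counts were rounded and tested with edgeR 4.0.16 (quasi-likelihood, R 4.3.3), fitted on all kept genes. Mouse genes were kept at a geometric mean count above 1 (offset 0.0001), all 8 groups entered 1 fit, and library size was the count on kept genes. Rat and AML12 fits used TMM. "Changed" means a p under 0.05 after Benjamini-Hochberg adjustment, and DEGs also differ at least 2-fold. Alternatives were TMM, DESeq2 1.42.0, all reads as library size, other filters, limma 3.58.1, a lane term, a length and GC trend, the mouse as block and leaving out libraries. The mice pair the preparations, since the labels name the animal, and all 72 of 72 same-mouse pairs correlated above 0.1 (median r 0.456, against -0.08 between mice). The fits were tested on simulated counts. Lists are of textbook members, and named list genes are those changed with the largest differences. The genes nearest in pattern to each receptor were ranked by Pearson r of log2 CPM (prior count 2). Intervals of pooled ratios and counts cover counting error only. The 8 genes and the lists were chosen with earlier results of these data known. Some genes that these rules select are not reported here.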

Additional observations from a re-analysis of the deposited data

Results flagged for a closer look

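In 13 of 112 checks of a gene in a group of 4 to 10 samples, the highest or lowest sample stood apart from the others by Dixon's criterion at 95%, which chance alone meets in about 1 in 20 groups. The checks are not independent, since the same mice recur in 4 preparations. Con mouse 21C met it for Nr1i3 in every preparation, at 42.15 CPM in FR (other 5 mice 15.1 to 23.9 CPM), 71.3 CPM in FR > OH (20.1 to 35.7 CPM), 71 CPM in FR > FFPE (22.1 to 37.3 CPM) and 64.85 CPM in FFPE (26.2 to 40.4 CPM). The same mouse was far below the others for Esr1, at 40.04 CPM in FR (62.9 to 72.2 CPM) and 40.54 CPM in FR > OH (71.1 to 89.4 CPM), and for Nr3c1 in FR > FFPE, at 172.4 CPM (197 to 208 CPM).

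In rat liver FFPE, library 83 stood above the others for Ahr, at 375.7 CPM (224 to 280.2 CPM), library 82 for Ppara, at 172.1 CPM (54.03 to 97.6 CPM), and library 84 for Hnf4a, at 390.3 CPM (253 to 296 CPM). In rat liver FR, library 68 was lowest for Nr3c1, at 65.11 CPM (92.8 to 107 CPM). In frozen rat lung, library 51 was at 0.4071 CPM for Nr1i3, which is 1 count, with the other 4 libraries at 0. In lung fixed for 1 yr, library 61 was at 97.38 CPM for Hnf4a (15.9 to 33.6 CPM).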

How the results depend on the processing

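Of the alternatives run on the number of the 8 genes called in each comparison, 179 stayed within 1.5 times the reported number and 22 did not. With a lane term in FR and FFPE, PB calls fell to 1 in FR and 1 in FFPE, and FFPE vs. FR calls to 4. TMM and DESeq2 gave 5 and 5 PB calls in FR > FFPE (Rxra -0.28 and Hnf4a -0.25 added, both with TMM), 3 and 4 in FFPE vs. FR and 3 and 3 in FR > FFPE vs. FR, and TMM gave 3 in FR > OH vs. FR. All reads as library size and limma gave 2 and 2 in FR > FFPE vs. FR and 8 and 8 in FFPE vs. FR > FFPE, and limma gave 1 in FR > FFPE vs. FR > OH. Leaving out 1 AML12 library gave 1 to 3 calls at 0.1% NBF. Rat liver FFPE vs. FR > FFPE on total counts gave 3. With the mouse as replicate block, calls rose to 5 in FFPE vs. FR > FFPE and to 4 in FR > FFPE vs. FR > OH, 7 were called in FR > OH vs. FR, and 1, 0 and 37 of all genes passed the interactions of PB with FFPE, FR > FFPE and FR > OH, none of them among the 8. The block changed no other call of a comparison named here by more than 1.5 times.

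Of single genes, 1306 values kept their direction and side of the threshold, 71 lost and 23 gained a call, and 49 turned. With all reads as library size and with limma, FFPE vs. FR was at -0.47 and -0.50 for Nr1i3, -0.58 (-0.575) and -0.57 for Nr1i2, -0.73 and -0.75 for Ahr, -0.21 and -0.22 (-0.215) for Ppara, -0.17 and -0.17 (-0.175) for Hnf4a, -0.76 and -0.76 for Nr3c1 and -0.50 and -0.54 for Esr1. Ahr was at -0.064 with TMM and -0.07 with DESeq2, and Nr3c1 at -0.091 and -0.097. FR > FFPE vs. FR was at -0.062 and -0.06 for Nr1i2, -0.04 and -0.051 for Nr3c1 and -0.01 and -0.019 for Esr1. FR > OH vs. FR was at -0.28 and -0.28 for Ahr and -0.24 and -0.24 for Nr3c1, which was -0.10 with DESeq2. FFPE vs. FR > FFPE was at -0.51 and -0.51 for Nr1i2, -0.27 and -0.27 for Rxra, -0.42 and -0.43 for Ppara, -0.32 and -0.32 for Hnf4a and -0.49 and -0.52 for Esr1. On total counts, rat liver FFPE vs. FR was at 1.18 (1.175) for Nr1i2, 1.36 (1.355) for Hnf4a and 0.11 for Esr1, FR > FFPE vs. FR at 0.14 for Nr3c1 and 0.60 for Esr1, and FFPE vs. FR > FFPE at 0.34 for Nr1i3, 0.008 for Nr1i2, 0.19 for Rxra and 0.23 (0.225) for Hnf4a. Frozen rat liver vs. lung was at -1.46 (-1.455) for Ahr. A shift of the all-gene median goes with these turns.

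Over all genes, calls of PB in FR went from 1130 to 724 with limma and 295 with a lane term, of PB in FFPE from 886 to 560 with a lane term, of PB in FR > FFPE from 966 to 594 with limma, of FFPE vs. FR from 9399 to 5724 with a lane term, of FFPE vs. FR > FFPE from 3904 to 11038 with all reads as library size and 11113 with limma, and of FR > FFPE vs. FR > OH from 2985 to 1587 with TMM, 1862 with DESeq2, 1581 with all reads, 1365 with limma and 5422 with the block. Depth limits Nr1i3 in FFPE livers, with 103 counts in the lowest library of any preparation, and the receptors with 10 or fewer counts in frozen lung.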
